A study of Mus musculus with 2 samples.

Results

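In double-negative (DN) thymocytes of mice, 592 stretches of the autosomes ran for 500 kb or more with no listed CTCF region. These gaps were chosen from the peak track itself: touching 25-bp bins were joined into regions, and on chromosomes 1 to 19 each distance of 500 kb or more between the end of a region and the start of the next was kept. Of 52235 gaps between neighbouring autosomal regions, the 592 made up 1.13%. The number, length and order of the gaps follow from the positions that chose them and are given as a description, with no test. The cells were thymocytes without CD4 or CD8 from Rag1-deficient mice (Rag1 -/-) of strain C57BL/6, 4 to 8 weeks old. Such cells cannot rearrange their antigen receptor genes and stop at an early stage of T cell development. The labels describe 1 CTCF immunoprecipitate and 1 input control, both from cells of this genotype, and the number and sex of the animals are not given. Only the CTCF library entered the values below, and it had no replicate.

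CTCF is a zinc-finger protein that binds a long DNA motif, blocks the spread of enhancer activity at insulators, and halts cohesin at the anchors of chromatin loops. Domains between such anchors can hold many genes, a single very long gene, or a gene desert, that is, a long stretch with few or no protein-coding genes. Other parts of the mouse genome hold arrays of closely related genes, such as those for olfactory and vomeronasal receptors, which detect odours and pheromones in sensory neurons of the nose. The track lists positions only, so the read depth behind a region or a gap is unknown. A gap therefore shows that no peak was listed, not that CTCF was absent, and whether reads could be placed there is not recorded in the track.

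Together the 592 gaps covered 548.2 Mb, or 22.8% of the 2408 Mb between the first and last region of the autosomes. A typical gap was far shorter than the longest ones. The median length was 743 kb, with quartiles of 596 and 1008 kb. Gaps of 500 to 600 kb numbered 154, a further 149 reached up to 750 kb, and 135 measured 750 kb to 1 Mb. The 154 gaps of 1 Mb or more were 26.0% of the members but held 45.3% of their length. Only 26 gaps reached 2 Mb and 6 reached 3 Mb. Across all other autosomal gaps the median distance between regions was 14.1 kb.

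Just inside the minimum stood gaps of 500.1 kb on chromosome 6, 500.8 kb on chromosome 2 and 500.9 kb on chromosome 5. Gaps of 499.1 kb on chromosome 3, 499.0 kb on chromosome 18 and 497.9 kb on chromosome 6 fell just outside it. There was thus no break in length at the minimum. Gaps past 250 kb exceeded that length by 303 kb on average and those past 500 kb by 426 kb. The 154 past 1 Mb exceeded it by 611 kb and the 71 past 1500 kb by 614 kb, so the mean excess was about the same at these marks. For the 26 gaps past 2000 kb it was higher, at 783 kb.

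The longest gap ran for 7.68 Mb on chromosome 7 (chr7:39067430-46744229, mm9) and was 2.04 times as long as the next. Undetermined bases of the mm9 assembly were not measured here, so how much of this stretch, or of any other gap, is sequenced DNA is not known. A region of 25 bp, the smallest width possible, bordered it on each side. The second and the fourth longest gaps lay on chromosome 7 as well. They measured 3.76 Mb (chr7:7252580-11014504) and 3.56 Mb (chr7:20649705-24208254). Of the 4 longest autosomal gaps, 3 were therefore on this chromosome, all in the part with the lower coordinates, which is the side of the centromere in the mouse.

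The third longest, of 3.56 Mb, lay on chromosome 12 (chr12:46706886-50271010), and the fifth, of 3.55 Mb, on chromosome 14 (chr14:93717070-97268544). Chromosome 3 held the sixth and seventh, of 3.16 Mb (chr3:10685519-13848768) and 2.84 Mb (chr3:41878819-44716293). Ranks 2 to 5 lay within 210 kb of each other, whereas rank 1 stood apart. The remaining gaps among the 10 longest measured 2.70 Mb (chr11:13460171-16161120), 2.56 Mb (chr1:115814996-118374220) and 2.55 Mb (chr5:93757546-96310120). The 10 together held 6.55% of the length of all members, so the total did not rest on them.

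**Figure D1:**
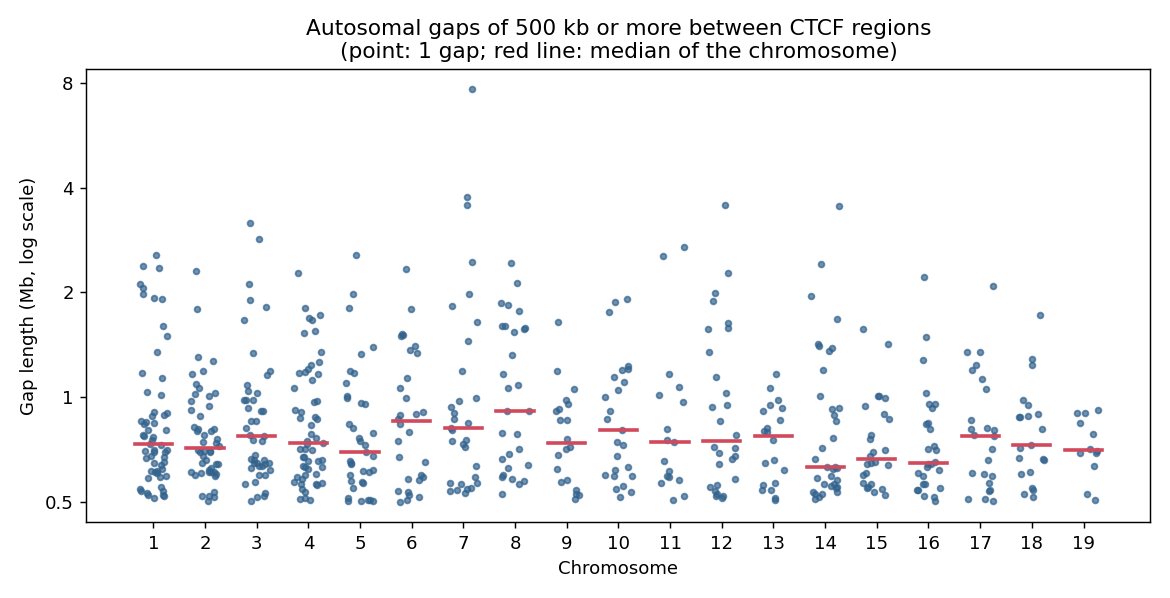
Length in Mb (log scale) of each of the 592 gaps of 500 kb or more, by chromosome; points are single gaps, spread sideways within a chromosome for legibility, and red lines are chromosome medians. Most gaps lie below 1 Mb, and the gap of 7.68 Mb on chromosome 7 stands above all others.

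The borders of the 10 longest gaps varied in width. The gap of 3.76 Mb on chromosome 7 had a region of 625 bp on its lower side and one of 100 bp on its upper side, and that of 3.56 Mb on the same chromosome had 125 and 300 bp. On chromosome 12 the borders measured 200 and 500 bp, and on chromosome 14 they measured 325 and 100 bp. The gaps of chromosome 3 were bounded by 475 and 25 bp (the longer gap) and by 700 and 50 bp. None of the 10 had a region of 500 bp or more on both sides. For the gaps on chromosomes 11, 1 and 5 the widths were 150 and 525 bp, 150 and 450 bp, and 600 and 250 bp.

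Every autosome carried long gaps, but in unequal amounts. Chromosome 4 had the largest share of its span in them, 32.6%, from 55 gaps. Chromosome 1 followed with 29.0% from 59 gaps, the highest number, and chromosomes 3, 14 and 7 had 28.1%, 28.04% and 27.6%. The smallest shares were 12.9% on chromosome 13, 13.3% on chromosome 9 and 13.8% on chromosome 11, from 20, 20 and 17 gaps. The highest share was 2.52 times the lowest. Long gaps made up 1.77% of all gaps on chromosome 3 and 0.422% on chromosome 11, around the 1.13% of the autosomes together.

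Number and length did not go together on all chromosomes. Chromosome 7 had 31 gaps, 20.8 per 100 Mb, but 4 of them were 2 Mb or longer. Chromosome 4 had 36.1 per 100 Mb, with 1 gap of at least 2 Mb (2.27 Mb, chr4:90747311-93019535). Chromosome 8 had the longest median, 910 kb over 29 gaps, and chromosome 14 the shortest, 629 kb over 35 gaps, although it held the fifth longest of all.

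The longest gap of the remaining chromosomes ranged widely. Above 2 Mb stood those of chromosome 8 (2.44 Mb, chr8:55915299-58350998), chromosome 6 (2.33 Mb, chr6:8901846-11233970), chromosome 2 (2.31 Mb, chr2:174762449-177068573), chromosome 16 (2.21 Mb, chr16:81331203-83539752) and chromosome 17 (2.08 Mb, chr17:37388177-39469501). The gap on chromosome 6 was the only one of these 5 with regions of at least 500 bp at both ends, 550 bp each. Between 1 and 2 Mb were those of chromosome 10 (1.91 Mb, chr10:34358403-36266527), chromosome 18 (1.73 Mb, chr18:87179257-88904881), chromosome 9 (1.64 Mb, chr9:18549501-20189375), chromosome 15 (1.57 Mb, chr15:17182555-18750979) and chromosome 13 (1.16 Mb, chr13:106236521-107397120). Chromosome 19 had no gap of 1 Mb, and its longest measured 0.920 Mb (chr19:51233511-52153685).

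Leaving the long gaps out narrowed the difference in CTCF density between chromosomes but did not remove it. Over the whole span chromosome 11 had 33.9 regions per Mb and chromosome 3 had 16.3, a ratio of 2.08. Outside the long gaps the values were 39.3 and 22.7 per Mb, a ratio of 1.73. Chromosome 13 became the sparsest with 21.3 per Mb, which put the highest density at 1.85 times the lowest. Chromosome 4 moved from 22.1 to 32.7 per Mb, next to chromosomes 7 (32.6) and 19 (32.4). Chromosome 13 was sparse with few long gaps, and chromosome 4 was dense with many. Across the 19 autosomes the share in long gaps and the density outside them had a Spearman's rho of -0.04 and a Pearson's r of -0.11. These describe 1 library, and both measures use the same region positions.

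**Figure D2:**
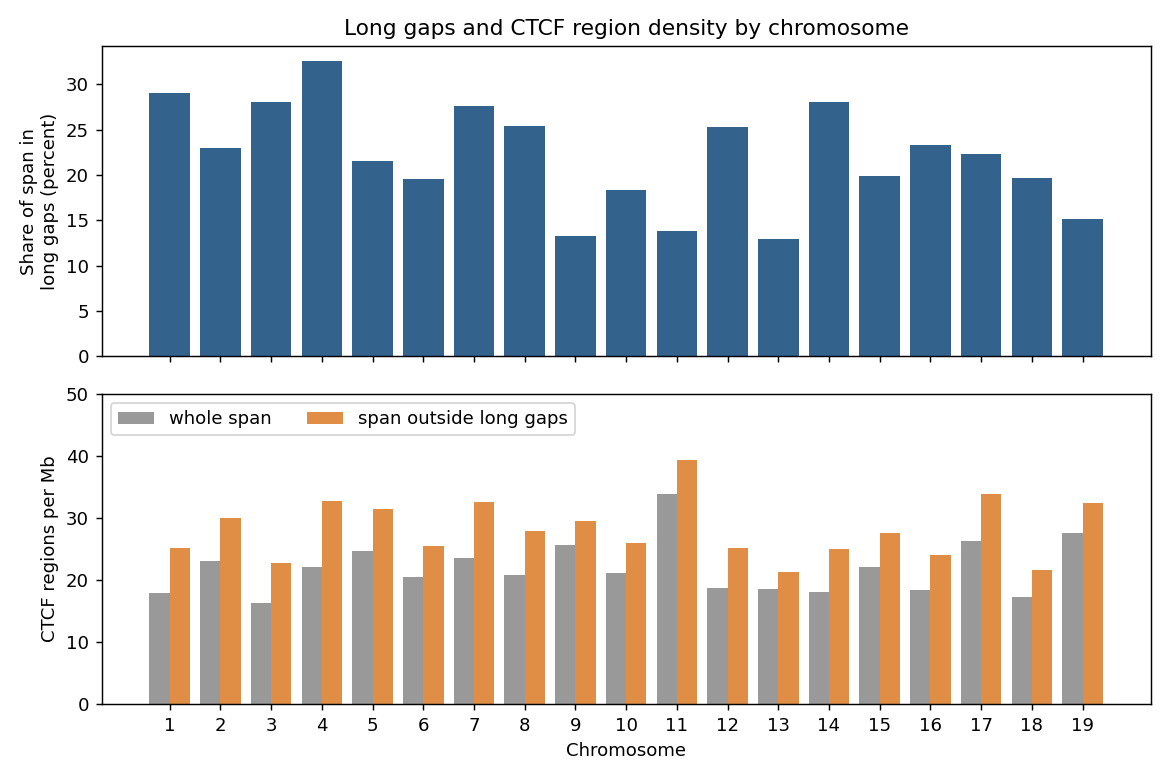
Upper panel: percent of the span from first to last region held by gaps of 500 kb or more, by chromosome; lower panel: CTCF regions per Mb over the whole span (gray) and over the span outside long gaps (orange). Chromosome 4 has the highest bar above (32.6%) and rises from 22.1 to 32.7 regions per Mb below.

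Long gaps took up more of the part of the chromosomes with the lower coordinates. When each span was split into 10 equal parts, gaps held 28.5% of the first part, 26.5% of the sixth, 14.2% of the ninth and 12.8% of the last. The fall was not steady, with 16.3% in the seventh part and 23.2% in the eighth. The density of regions outside the gaps went the other way, from 22.1 per Mb in the first part to 36.3 in the last. It did not rise at each step, with 27.3 in the second part and 24.2 in the third. On 13 of 19 autosomes the part below the midpoint of the span had the larger share in long gaps. The contrast was widest on chromosome 7, with 44.0% below the midpoint and 11.2% above it. The part below the midpoint there includes the gap of 7.68 Mb, and how much of that gap is sequenced DNA is not known. Chromosome 8 had 38.7% and 12.2%, and chromosome 4 had 45.8% and 19.4%. The order was opposite on chromosome 14 (15.1% and 41.0%), chromosome 16 (10.8% and 35.7%), chromosome 17 (16.7% and 27.9%) and chromosome 13 (7.96% and 17.9%). On chromosomes 18 and 19 the sides lay within 2 percentage points of each other.

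Long gaps lay next to each other. Of 591 long gaps followed by a further gap, 99 (16.8%) were followed directly by another long gap, with a single CTCF region between them, against the 1.13% of all autosomal gaps that were long. Both neighbours were long for 24 gaps, 1 neighbour for 150 and neither for 418. Gaps of 100 kb or more followed 53.3% of long gaps, and such gaps were 9.94% of all. The median gap beside a long gap was 121 kb, compared with 14.4 kb over all autosomal gaps.

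This surplus faded with distance but was still present many regions away. At 2 gaps from a long gap 13.4% were long and the median was 68.7 kb. At 5 gaps the values were 7.50% and 43.7 kb, at 10 gaps 3.24% and 28.7 kb, and at 20 gaps 3.08% and 23.0 kb. Throughout these steps both measures stayed above those of all autosomal gaps.

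**Figure D3:**
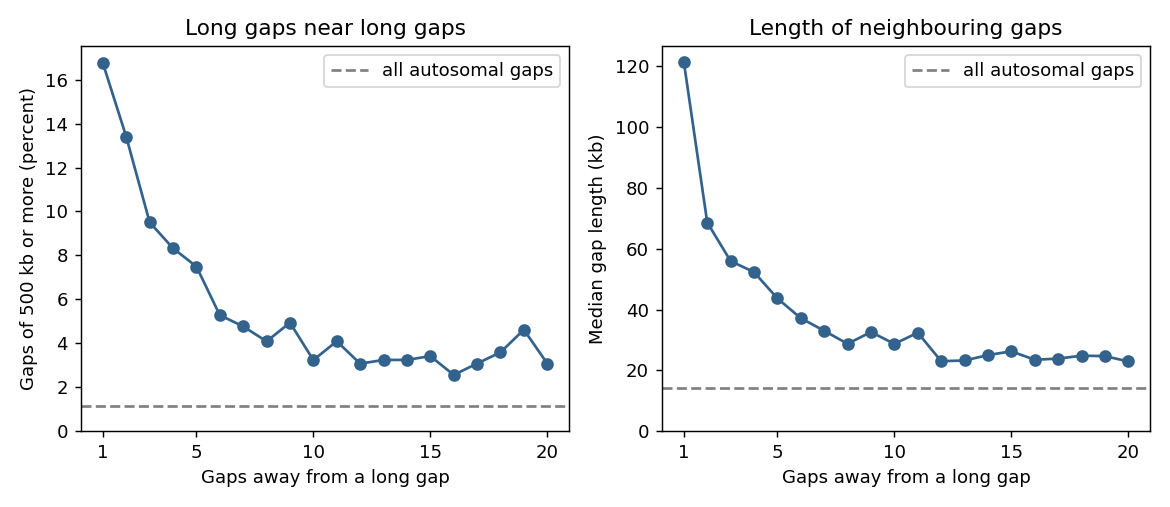
Left: percent of gaps that are 500 kb or more at 1 to 20 gaps from a long gap, both sides together; right: median length in kb of those gaps; dashed lines give the values over all autosomal gaps (1.13% and 14.4 kb). Both curves fall from 16.8% and 121 kb next to a long gap and stay above the dashed lines.

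Many long gaps formed chains. A chain was defined as successive long gaps with at most 5 CTCF regions between one and the next. In this way 349 of the 592 gaps (58.95%) fell into 127 chains, while 243 stood alone. Most chains were short: 79 had 2 gaps, 26 had 3, 8 had 4 and 14 had 5 or more. The chains spanned 366 Mb, 15.2% of the autosomal span, and held 461 regions, 0.882% of all autosomal regions. Their density was 1.26 regions per Mb.

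The chain with both the most gaps and the greatest span was on chromosome 15 (chr15:13111255-23400929). It strung 10 gaps over 10.3 Mb, the shortest 566 kb and the longest 1.57 Mb. Its 19 regions ranged from 25 to 625 bp, with 7 of 100 bp or less and 6 of 500 bp or more. The longest gap of this chain ranked only 63 of the 592, so the length of the sparse stretch came from the row of gaps.

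On chromosome 14 the second longest chain ran for 9.30 Mb (chr14:87967195-97268544), with 6 gaps that ended in the gap of 3.55 Mb. A further chain of 6 gaps over 7.49 Mb (chr14:107480170-114967144) and one of 4 gaps over 6.04 Mb (chr14:80669445-86707669) lay on the same chromosome. These 3 chains held 11, 11 and 9 regions. They lie above the midpoint of the chromosome, where 41.0% of the span was in long gaps.

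On chromosome 5, 7 gaps spanned 7.68 Mb (chr5:78338646-86015620) with 9 regions between them, of a median width of 125 bp. Its first 5 gaps followed each other with a single region between each pair, of 75, 25, 25 and 125 bp. No other unbroken run on the autosomes, of long gaps parted by 1 region each, had as many gaps. By span, its 4.07 Mb was exceeded by a run of 3 gaps over 5.52 Mb on chromosome 14 (chr14:91746170-97268544). Runs of 4 gaps over 4.68 Mb on chromosome 1 (chr1:114538871-119220395) and over 4.23 Mb on chromosome 4 were longer too. So was a run of 2 gaps over 4.10 Mb on chromosome 7. Chromosome 2 had a chain of 7 gaps over 6.08 Mb (chr2:94918199-100999173), with 9 regions of which 3 measured 500 bp or more. Among unbroken runs, 3 others held 4 gaps and 15 held 3. The run on chromosome 4 (chr4:65695061-69920635) had regions of 475, 500 and 525 bp between its gaps, so not all such lone regions were narrow.

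In other chains nearly the whole stretch was empty. On chromosome 1, 4 gaps filled 99.9% of 5.66 Mb (chr1:24958521-30621195), parted by 5 regions. On chromosome 7 the second longest gap of all and a gap of 1.83 Mb left 3 regions of 100, 100 and 75 bp in 5.81 Mb (chr7:7252580-13063354). The fourth longest gap was followed by one of 544 kb, and a single region of 300 bp stood in those 4.10 Mb (chr7:20649705-24752954).

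Chains were most common on chromosomes 5 and 4, where 75.7% and 74.5% of the long gaps belonged to one, and least common on chromosome 13 with 35.0%. Successive long gaps of a chromosome were a median of 1.03 Mb apart, and 137 of 573 such pairs (23.9%) were within 100 kb. At the other extreme, 35 pairs were more than 10 Mb apart. The longest such stretch between successive long gaps ran for 37.4 Mb on chromosome 13 (chr13:28036446-65412620) and held 965 regions, 25.8 per Mb. Next came 34.4 Mb on chromosome 9 (chr9:49980076-84360750) with 31.9 per Mb and 31.0 Mb on chromosome 10 (chr10:66204453-97231177) with 30.9 per Mb.

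The sparse surroundings reached beyond the border regions. From 10 to 50 kb outside a border, leaving out the length of other long gaps, there were 11.8 regions per Mb, and from 50 to 100 kb there were 11.9. The density rose to 14.3 per Mb at 100 to 250 kb, 17.7 at 250 to 500 kb, 21.3 at 500 kb to 1 Mb and 22.8 at 1 to 2 Mb. Even there it was below the 28.1 per Mb of the autosomes outside long gaps. The first 1 kb held 107 regions, or 109 per Mb, of which 7.48% measured 500 bp or more. Of 15126 regions that bordered no long gap and had another region within 1 kb, 28.6% reached that width. Over all autosomal regions the share was 46.8%. The 15126 were not picked by a window of 1 kb, so their share and the 7.48% are not like for like. Close neighbours were common around all regions: 16.2% of all autosomal gaps were under 1 kb, against 8.63% of the gaps beside a long gap. Regions near several long gaps count once for each, so these values are not independent.

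**Figure D4:**
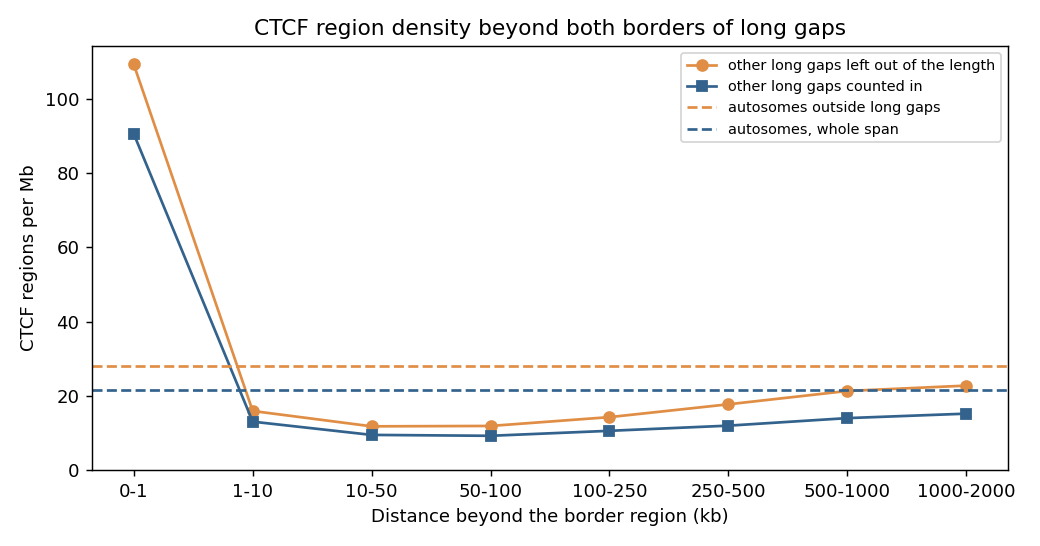
CTCF regions per Mb (vertical axis) by distance in kb beyond the border regions of the 592 gaps, both sides together, with other long gaps left out of the length (orange) or counted in (blue); dashed lines are the autosomal values of 28.1 and 21.7 per Mb. Beyond the first kb, density is lowest at 10 to 100 kb and rises with distance, without reaching the dashed line of its colour.

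The sparse flanks were present on both sides of the gaps. At 10 to 50 kb the density was 12.5 per Mb beyond the lower border and 11.2 beyond the upper one. At 1 to 2 Mb the values were 21.9 and 23.7 per Mb.

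Regions that bordered long gaps were narrower than other CTCF regions. The 592 gaps had 1085 border regions, because 99 regions lay between 2 long gaps. Their median width was 250 bp, against 450 bp for the other 51169 autosomal regions. Of the border regions 31.3% measured 500 bp or more (exact 95% interval 28.6 to 34.2%), against 47.1% of the others (46.7 to 47.5%). At the narrow end, 30.0% of border regions (27.3 to 32.9%) and 22.2% of the others (21.8 to 22.6%) measured 100 bp or less. The intervals cover counting error only. The share of regions of 500 bp or more was lower at the borders on 19 of 19 autosomes, from 18.8% against 47.8% on chromosome 11 to 40.4% against 46.5% on chromosome 16.

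The 99 regions between 2 long gaps were narrower still. Their median was 125 bp, 46 of them (46.5%, exact 95% interval 36.4 to 56.8%) measured 100 bp or less, and 13 reached 500 bp. Border regions with 1 long gap had a median of 288 bp. Width did not fall steadily with the length of the gap. The share of 500 bp or more was 32.8% beside gaps of 500 to 750 kb, 32.8% at 750 kb to 1 Mb, 25.5% at 1 to 2 Mb and 36.5% in the 52 regions beside gaps of 2 Mb or more (exact 95% interval 23.6 to 51.0%).

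Widths were also set side by side by the distance to the nearest region. The rule fixes 1 side of each border region at 500 kb or more, so this distance is that of its other side, whereas for other regions it is the shorter of both sides. With the nearest region 10 to 100 kb away, 37.7% of 358 border regions (exact 95% interval 32.7 to 43.0%) and 52.1% of other regions (51.3 to 52.8%) were 500 bp or wider. Beyond 100 kb the shares were 25.05% of 531 (21.4 to 29.0%) and 35.3% of 1075 (32.4 to 38.2%). These 531 include the 99 regions between 2 long gaps, of which 13 reached 500 bp. Their nearest region is 500 kb or more away, a distance that no other region can have under the rule. At 1 to 10 kb they were 53.2% of 94 (42.6 to 63.6%) and 58.5% (57.8 to 59.2%), and within 1 kb 21.6% of 102 (14.0 to 30.8%) and 28.6% (27.9 to 29.3%). At each distance the share was lower at the borders, and the differences were not tested. Even the wide borders were slightly narrower: among regions of 500 to 700 bp the mean was 574 bp at borders (SD 47.1, 330 regions) and 590.5 bp elsewhere (SD 48.4, 22333 regions). The most frequent width in this class was 550 bp at borders, with 66 regions, and 600 bp over all autosomal regions.

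**Figure D5:**
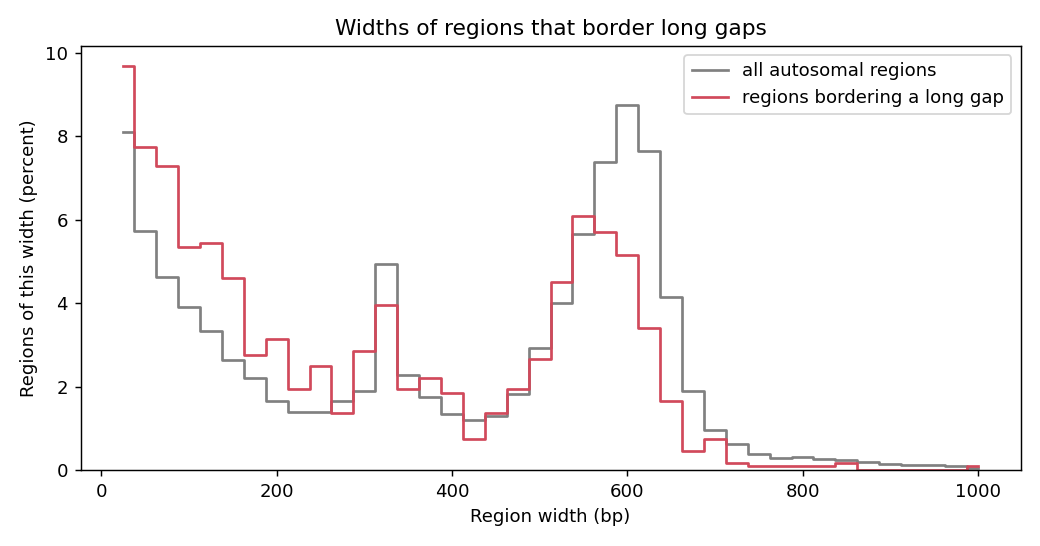
Percent of regions at each width from 25 to 1000 bp (25-bp steps) for the 1085 regions that border long gaps (red) and for all 52254 autosomal regions (gray). Border regions are more often 150 bp or narrower, and their broad maximum is lower and lies at 550 bp where that of all regions lies at 600 bp.

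A wide region on each side was rare. In 55 gaps (9.29%) both borders measured 500 bp or more, in 243 (41.0%) 1 did and in 294 (49.7%) neither did. Of the lower borders 31.1% and of the upper borders 28.5% measured 500 bp or more. The widest border region measured 1150 bp (chr19:20419336-20420485), above a gap of 697 kb. Next were 1000 bp on chromosome 1 (chr1:144638446-144639445) and 850 bp on both chromosome 7 (chr7:78523555-78524404) and chromosome 17 (chr17:37387327-37388176). The first of these 850-bp regions borders a gap of 633 kb, and the second faces the longest gap of chromosome 17, of 2.08 Mb.

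Gene positions of the build of the track (mm9) were not used here, so no gap was assigned to a gene desert or a gene array. Gene names and gene order, from RefSeq for GRCm38.p6, give the arrays each chromosome carries. Only protein-coding genes were counted, so genes of other kinds between the members of a row were passed over. Chromosome 7 had the most olfactory, vomeronasal and trace amine receptor genes, 417 of 1471 on the autosomes, among them 239 Olfr, 126 Vmn1r and 52 Vmn2r genes. It also had the longest gap and 3 of the 4 longest. The longest row of neighbouring receptor genes was on chromosome 2, with 123 Olfr genes in succession, and the longest gap there measured 2.31 Mb. That gap was centred at 96.8% of the span, and whether it holds any of these genes was not tested. Chromosome 12 carried 0 such receptor genes and held the third longest gap, and chromosome 3, with 9, held the sixth and seventh.

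Across the 19 autosomes the number of these receptor genes and the share of the span in long gaps had a Spearman's rho of -0.32 and a Pearson's r of 0.02. Chromosome 7, with the most, had 27.6% of its span in long gaps, and chromosome 2, with 287, had 23.0%. Chromosome 9, with 130, had 13.3%, and chromosome 4, with 28, had 32.6%. Other arrays of neighbouring genes included 25 defensin genes on chromosome 8, whose products kill microbes in gut and epithelia. Chromosome 4 had 14 genes in a row for major urinary proteins, which carry pheromones, and 11 Skint genes, of which Skint1 acts in the thymus in the selection of epidermal gamma-delta T cells. On chromosome 6, 19 killer lectin receptor genes (Klr), which encode receptors of natural killer cells, stood in a row. Whether any of these arrays lies in a long gap was not tested.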

How the data were processed

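CTCF ChIP-seq was measured in 1 library of DN thymocytes, fixed with 1% formaldehyde for 10 minutes, per the labels' protocols. The deposited track lists start and end positions of 25-bp bins, with no score. Bowtie and the mm9 build were used, per the submitters' processing notes. How peaks were called and filtered, and whether the input was used for it, is not given in the sources used here. The input library was not analysed here.

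Touching bins were joined into regions (52254 on chromosomes 1 to 19), and positions were made 1-based. Gaps were the bases between neighbouring regions; sequence before the first and after the last region of a chromosome was left out. Intervals were exact binomial at 95% and cover counting error only. The gap code was tested on simulated bins with 190 planted long gaps and recovered 190. The members and lists were chosen with earlier results of these data known. Named gaps were the 10 longest, the longest of each chromosome, the chains with the most gaps and the longest spans, and 3 on each side of the minimum. Other chains, stretches and border regions were named after their values were seen, and gene arrays by chromosome were added then. Alternatives varied the width of regions counted, joining, the minimum and the chain rule. Python 3.11.15, numpy 2.4.6, pandas 2.3.3, scipy 1.17.1 and matplotlib 3.10.9 were used.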

Additional observations from a re-analysis of the deposited data

Results flagged for a closer look

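Chromosome X was left out of the comparisons above and also held long gaps. Of its 1293 gaps, 60 (4.64%) were 500 kb or more, beside 1.13% of autosomal gaps. They took up 81.4 Mb, or 50.1% of the X span, with a median of 779 kb. Outside them X had 15.9 regions per Mb. The difference from the autosomes was not tested, and 1 library gives no replicate. The sex of the animals, and so the number of X copies per cell, is not given.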

How the results depend on the processing

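For 8 results, 44 alternative values were computed: 23 stayed within 1.5 times the reported count, length, share of span or ratio, or within the 95% interval of a median or of a share of gaps or regions, 21 moved, and these results have no direction to reverse. Dropping regions under 500 bp gave a summed length of 971 Mb, 40.4% of the span, a median of 857 kb and, by construction, 100% of borders of 500 bp or more. Dropping regions of 100 bp or less gave a median of 799 kb and 46.8% of such borders. Dropping them also raises the share of 500 bp or more among the other regions, so 46.8% cannot be set against the 47.1% given above. Of all 52254 autosomal regions, 24440 measured 500 bp or more and 11688 measured 100 bp or less. Of the 592 gaps, 277 kept both ends. With a minimum of 1 Mb there were 154 gaps of 248 Mb (248.1), 10.3% of the span, with a median of 1397 kb, 5.84% followed by another, 25 chains and 27.4% of borders of 500 bp or more. With a minimum of 250 kb these values were 1632 gaps, 902 Mb (901.9), 37.5%, 398 kb (398.0), 24.7%, 349 chains and 35.97%. With at most 1 region between gaps there were 75 chains. With the shifted minimum the counts change by construction; otherwise the cause was not tested. Joining regions within 1000 bp left all 592 gaps with the same ends. The chromosome ratio at 1 Mb could not be computed, since chromosome 19 has no such gap. Gene density of the gaps was not run for want of an mm9 annotation, and GC content for want of an mm9 genome. No paired analysis was possible because the track comes from a single library. With no depth in the track, the number of weaker sites left out inside the gaps cannot be given.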

Other observations

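Dropping the regions of 100 bp or less fused neighbouring gaps. The second longest stretch on chromosome 7 then ran for 6.15 Mb (chr7:7252580-13403179), and new stretches of 3.88 Mb stood on chromosome 8 (chr8:99074524-102954198) and chromosome 2 (chr2:39250324-43126248). The longest gap changed little, from 7.68 to 7.72 Mb, and its borders then measured 375 and 575 bp in place of 25 and 25 bp. Counting only regions of 500 bp or more, it ran for 7.79 Mb, and a stretch of 6.52 Mb on chromosome 14 (chr14:90833420-97353544) came second.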
